A study of Mus musculus with 16 samples.

Results

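The stratified squamous keratins *Krt4*, *Krt5*, *Krt6a*, *Krt13*, *Krt14*, *Krt15* and *Krt17* were followed through the developing mouse stomach. They were chosen by symbol, and all 7 were present among the 53711 genes of the table. RNA was sequenced from 16 libraries of embryos carrying *Sox2-EGFP* and *Gata4-td Tomato* reporter alleles, both knocked in and kept in a mixed C57BL/6–129×1/Sv background. Epithelial cells were stained for EpCAM and sorted by the fluorescence of both reporters at E13.5 (E, embryonic day) into Sox2hi (n = 3 libraries), Sox2midGata4mid (n = 2) and Gata4hi cells (n = 3), and at E11.5 into Sox2hi and Gata4hi cells (n = 1 each). PDGFRα-stained fibroblasts of the proximal and the distal stomach were sorted from E13.5, E15.5 or E17.5 embryos carrying the same reporter alleles (n = 1 each). Because the gates rest on *Sox2* and *Gata4* reporter brightness, the groups are fractions of 1 epithelium and not dissected regions. Whether replicates were separate litters is not stated, and the p-values measure only the spread between these libraries.

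Keratins are the intermediate filament proteins of epithelia and assemble as pairs of an acidic type I and a basic type II chain. In stratified squamous epithelium, *Krt5* (type II) pairs with *Krt14* (type I) in the basal layer, where *Krt15* (type I) is also made. *Krt4* (type II) and *Krt13* (type I) form the pair of the suprabasal layers of internal squamous lining such as that of the esophagus and the mouse forestomach. *Krt6a* (type II) and *Krt17* (type I) are known from skin appendages and from epithelium under stress or repair. Simple columnar epithelium instead carries *Krt8* and *Krt18*, often with *Krt19* or *Krt7*.

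The 7 genes lie in the keratin clusters of the mouse genome, all on the minus strand. The type I genes *Krt13* (chr11:100117327-100121566), *Krt15* (chr11:100131758-100135928), *Krt14* (chr11:100203162-100207548) and *Krt17* (chr11:100256217-100261029) are on chromosome 11 of GRCm38. The type II genes *Krt6a* (chr15:101689910-101694307), *Krt5* (chr15:101707070-101712898) and *Krt4* (chr15:101918535-101924735) are on chromosome 15. Keratin genes resemble each other, so the transcripts were searched for stretches of 75 bases that also occur in another gene. Such stretches made up 37.5% of *Krt6a* (most often shared with *Krt6b*, *Gm5478* and *Krt5*), 5.91% of *Krt14* (shared with *Krt16*) and 5.18% of *Krt5*, and none were found in *Krt4*, *Krt13*, *Krt15* or *Krt17*. *Krt6a* values are therefore the least certain of the group.

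RefSeq promoter entries were matched for 3 of the 7 genes (*Krt5*, *Krt13* and *Krt14*). The 250 bases before the start of *Krt5*, the basal keratin with a large difference between the sorted groups, and of *Krt13*, the suprabasal keratin of the latest fibroblast libraries, are shown as an example of each class. The *Krt13* window belongs to the RefSeq start that matches the gene's end in the table. Both are read on the minus strand of GRCm38.p6 (*Krt5*, chr15:101712906-101713155, and *Krt13*, chr11:100121567-100121816), and capitals mark CATG, the core of the p53-family motif to which the squamous regulator p63 binds.
Krt5: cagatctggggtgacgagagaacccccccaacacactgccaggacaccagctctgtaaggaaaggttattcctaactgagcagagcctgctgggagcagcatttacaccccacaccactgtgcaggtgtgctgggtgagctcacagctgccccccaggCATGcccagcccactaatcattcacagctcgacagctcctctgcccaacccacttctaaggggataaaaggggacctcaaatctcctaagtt
Krt13: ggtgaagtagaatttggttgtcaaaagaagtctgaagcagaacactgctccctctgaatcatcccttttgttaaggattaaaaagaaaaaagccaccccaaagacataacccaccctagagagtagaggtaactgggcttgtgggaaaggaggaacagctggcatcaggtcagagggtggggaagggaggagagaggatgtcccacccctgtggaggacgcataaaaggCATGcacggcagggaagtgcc

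Each window held 1 CATG, 92 bases before the start of *Krt5* and 21 bases before that of *Krt13*. CATG was found in 53.9% of 32851 RefSeq promoter windows of the same length, so these matches describe the letters and nothing more. Neither window held the GATA motif AGATAA, which was found in 9.99% of the windows. Of the SOX motifs, ACAAAG was in neither window. The SOX motif ACAATG was also in neither, and at least 1 of both SOX motifs was found in 25.2% of all windows. All motifs were searched on both strands.

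Values are fragments per kilobase of transcript, scaled to the depth of the library (FPKM), as the authors deposited them. The low FPKM values came in steps of single reads, which gave rounded depths of 19800000 to 45400000 fragments for the epithelial and 16700000 to 33500000 fragments for the fibroblast libraries. Read numbers below assume the longest transcript of a gene, and 3 reads were taken as the limit that a value of 0 allows, both for counting error only. The sorts matched their labels: the 8 epithelial markers summed to 1088 to 1728 FPKM in epithelial and 2.50 to 8.88 FPKM in fibroblast libraries, and the 8 fibroblast markers to 5.28 to 22.1 FPKM in epithelial and 4449 to 31650 FPKM in fibroblast libraries. E13.5 replicates 1 and 2 are labelled in a style of their own, and replicate 3 of Sox2hi and Gata4hi cells in the style of the E11.5 and fibroblast libraries. Whether this marks a batch is not stated.

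In E13.5 epithelium, the squamous keratin transcripts were concentrated in Sox2hi cells and consisted mostly of *Krt15*, followed by *Krt5* and *Krt17*. The summed FPKM of the 7 genes was 129 to 171 in Sox2hi cells, 19.6 and 22.4 in Sox2midGata4mid cells and 7.28 to 14.9 in Gata4hi cells. The 7 genes took 19.3% ± 1.31 (SD, n = 3) of the FPKM of all 55 keratin genes in Sox2hi cells, 3.43% ± 0.504 (SD, n = 2) in Sox2midGata4mid cells and 1.13% ± 0.343 (SD, n = 3) in Gata4hi cells. Most keratin transcripts of Sox2hi cells were thus from other keratin genes, led by *Krt19* (224 ± 23.8 FPKM, SD, n = 3), *Krt18* (146 to 166 FPKM) and *Krt8* (125 to 142 FPKM), the keratins of simple epithelium. These groups do not overlap in the sum or in the share. In bulk libraries, fewer cells making a keratin and less of it per cell cannot be told apart.

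**Figure D1:**
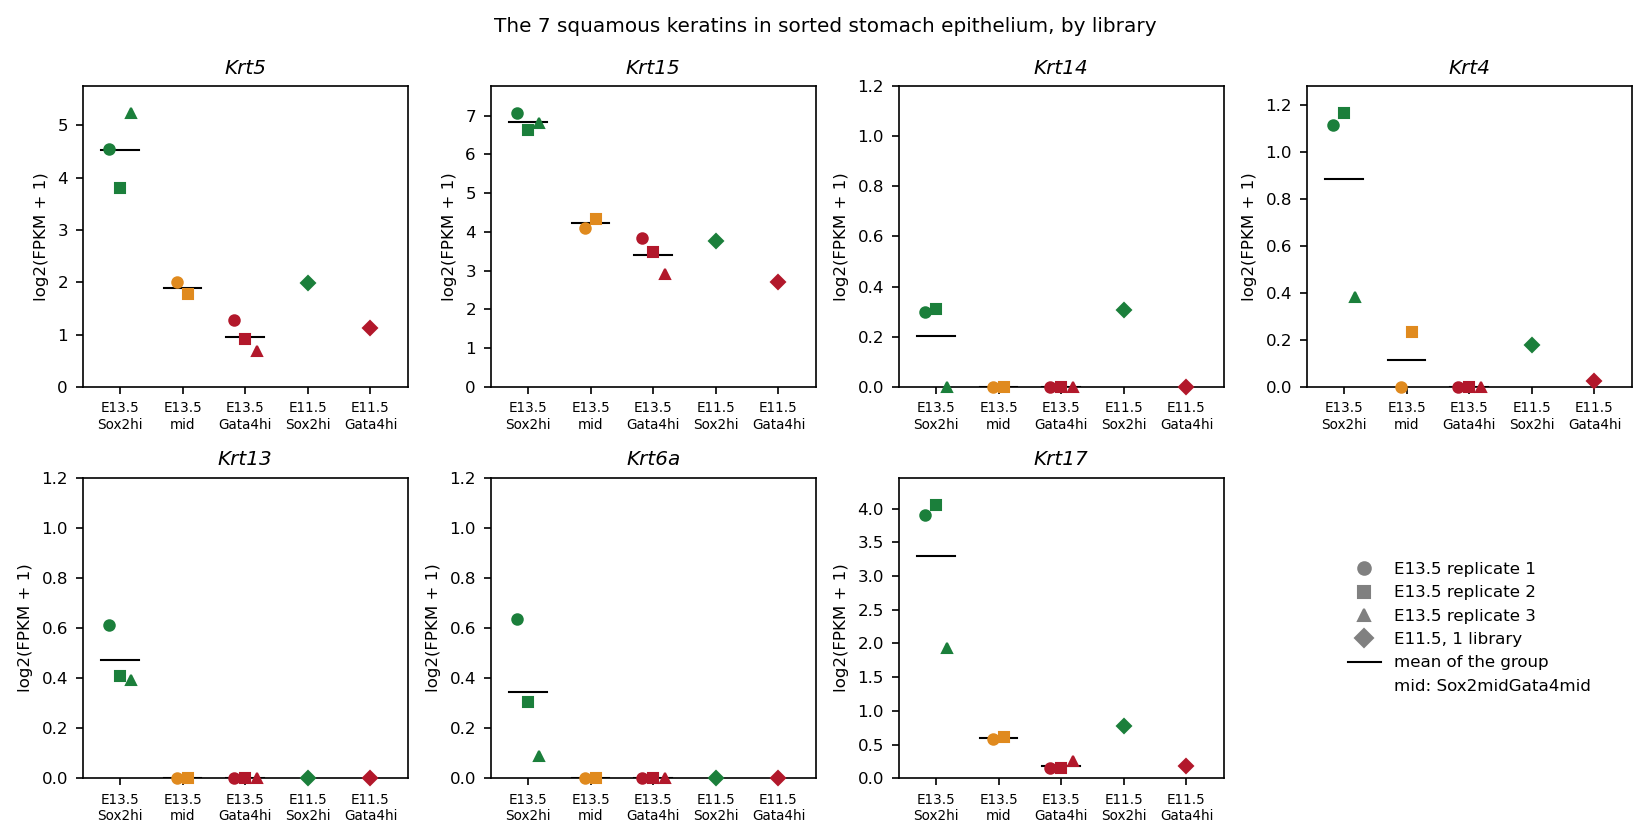
Levels of the 7 keratins in each epithelial library, as log2(FPKM + 1) on the vertical axis, with 1 point for each library (shape gives the E13.5 replicate) and a line at the mean of groups with several libraries. *Krt15* reached 98.0 to 132 FPKM and *Krt5* 13 to 36.5 FPKM in E13.5 Sox2hi cells, while the 4 lowest keratins stayed at or below 1.24 FPKM in every epithelial library.

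Among the basal keratins, *Krt15* was by far the most abundant. It stood at 132, 98.0 and 111 FPKM in the Sox2hi libraries, at 16.1 and 19.3 FPKM in the Sox2midGata4mid libraries, and at 13.4, 10.1 and 6.47 FPKM in the Gata4hi libraries. The 3 groups kept apart, although the lowest Sox2midGata4mid and the highest Gata4hi library were close. *Krt15* was the one member whose level was above 1 FPKM in every epithelial library, and even the lowest E13.5 value, in Gata4hi replicate 3, rested on about 299 reads.

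*Krt5* was lower and more variable. Its level was 22.5, 13 and 36.5 FPKM in Sox2hi cells, 3.0 and 2.43 FPKM in Sox2midGata4mid cells and 1.42, 0.885 and 0.616 FPKM in Gata4hi cells. The groups again did not overlap, and the Sox2hi libraries spread widely, with replicate 3 highest and replicate 2 lowest.

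*Krt14*, the usual type I partner of *Krt5*, was nearly absent beside it. It was listed at 0.229, 0.241 and 0 FPKM in the Sox2hi libraries, which corresponds to about 15, 16 and 0 reads. It was listed at 0 in all Sox2midGata4mid and Gata4hi libraries. In Sox2hi replicate 3, where *Krt5* was highest, 3 reads of *Krt14* would have given 0.0653 FPKM. Among the 7 genes, the type I transcripts beside *Krt5* were therefore almost entirely those of *Krt15* and *Krt17*. The type I members summed to 6.07, 7.89 and 3.10 times the type II members in the Sox2hi libraries, to 5.54 and 7.61 times in the Sox2midGata4mid libraries and to at least 9.50 times in each Gata4hi library.

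*Krt17* and *Krt6a*, the keratins of appendages and stressed epithelium, were both highest in Sox2hi cells but far apart in level. *Krt17* was at 14.0, 15.6 and 2.80 FPKM in Sox2hi cells, at 0.503 and 0.532 FPKM in Sox2midGata4mid cells and at 0.114, 0.117 and 0.192 FPKM in Gata4hi cells. *Krt6a* was at 0.553, 0.235 and 0.0627 FPKM (about 51, 23 and 4 reads) in Sox2hi cells and at 0 in the other 5 libraries. Both were lowest in Sox2hi replicate 3, the library in which *Krt5* was highest.

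The suprabasal pair was barely detected in E13.5 epithelium, and what there was lay in Sox2hi cells. *Krt4* was at 1.2, 1.2 and 0.303 FPKM (about 96, 108 and 18 reads) in Sox2hi cells, at 0 and 0.174 FPKM in Sox2midGata4mid cells and at 0 in all Gata4hi libraries. *Krt13* was at 0.528, 0.326 and 0.314 FPKM (about 33, 21 and 14 reads) in Sox2hi cells and at 0 in the other 5 libraries. Against the mean level that 3 reads would give in the Gata4hi libraries, the Sox2hi mean was at least 21.6-fold higher for *Krt4*, at least 7.62-fold higher for *Krt6a*, at least 7.0-fold higher for *Krt13* and at least 2.91-fold higher for *Krt14*. These 4 genes were below the mean of 1 FPKM needed for the test across genes, so these folds have no test. They allow for 3 unseen reads in each Gata4hi library but not for the spread or counting error of the Sox2hi libraries. *Krt14* was above 0 in only 2 of the 3 Sox2hi libraries.

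Over the 10 epithelial libraries, on the log2(FPKM + 1) scale, *Krt5* correlated most with *Krt15* (Pearson r = 0.962 over 10 libraries). Of the leading members *Krt5*, *Krt15* and *Krt17*, the low members *Krt4* (r = 0.988), *Krt6a* (r = 0.896) and *Krt14* (r = 0.746) had their highest value with *Krt17*, and *Krt13* had nearly equal values with *Krt15* (r = 0.937) and *Krt17* (r = 0.936). *Krt5* and *Krt14* had the lowest value of all pairs (r = 0.475). These values describe libraries that share their groups and are not tests. Among 9249 genes, the closest to *Krt5* were *Lgi2* (r = 0.986), *Tinagl1* (r = 0.983) and *Ssx2ip* (r = 0.981), and the closest to *Krt15* were *Pdgfa* (r = 0.978), *Klf4* (r = 0.977) and *Enpp2* (r = 0.974), over the same 10 libraries. *Klf4*, a transcription factor of epithelial differentiation, averaged 66.9 FPKM in Sox2hi, 27.5 in Sox2midGata4mid and 18.6 in Gata4hi cells at E13.5.

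The comparison of Sox2hi with Gata4hi cells at E13.5 asked how far the squamous keratin program had separated between the fractions of the future proximal and distal epithelium. *Krt5*, *Krt15* and *Krt17* all rose in Sox2hi cells, by 24.6, 11.4 and 76.5 times in mean FPKM. On the log2(FPKM + 1) scale the change was 3.57 (SE 0.34, limma, adjusted p = 2.6e-04) for *Krt5*, 3.43 (SE 0.23, adjusted p = 6.2e-05) for *Krt15* and 3.10 (SE 0.52, adjusted p = 0.0043) for *Krt17*. Of the 7 keratins, 3 reached the mean of 1 FPKM and all 3 were called higher at an adjusted p under 0.05, where 6.70% of 13127 genes were. *Krt5* and *Krt17* averaged under 1 FPKM in Gata4hi cells and passed the filter through Sox2hi cells, so this count is a description. *Krt15* passed 1 FPKM in every group.

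The size of the *Krt5* and *Krt17* changes depended on the replicate. Replicates 1 and 2 alone gave a log2 change of 3.09 for *Krt5* and 3.82 for *Krt17*, and replicate 3 alone gave 4.53 and 1.67. *Krt15* was at 3.19 in replicates 1 and 2 and 3.91 in replicate 3. *Trp63*, which encodes p63, was also highest in Sox2hi replicate 3, at 35.0, 27.1 and 43.7 FPKM over the 3 Sox2hi libraries. The part of the label styles in these differences was not tested.

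Regulators of squamous epithelium and the junction genes to which keratins attach were read beside the keratins. In Sox2hi over Gata4hi cells, 6.70% of all genes tested were called higher and 14.9% lower. Of 16 listed regulators, 13 were tested, 7 were higher and 2 lower, with a median log2 change of 0.77 against −0.08 over all genes tested. The list includes *Sox2*, whose reporter set the gates. *Trp63* and *Pax9* averaged under 1 FPKM in Gata4hi cells and passed the filter through Sox2hi cells. The counts of regulators, here and in the comparisons below, are therefore a description. *Trp63* stood at 35.3 ± 8.29, 2.12 ± 0.885 and 0.0599 ± 0.0486 FPKM in Sox2hi, Sox2midGata4mid and Gata4hi cells (SD, n = 3, 2 and 3), a log2 change of 5.07 (SE 0.21, limma, adjusted p = 1.0e-05) between Sox2hi and Gata4hi cells. *Pax9*, a transcription factor of the foregut and oral epithelium, rose by 4.40, *Pitx1* by 2.52 and the epidermal differentiation factor *Grhl3* by 2.43. The named regulators were picked for the largest absolute log2 changes in this comparison, which left the 2 lower ones unnamed.

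Of 18 listed desmosome, plakin and hemidesmosome genes, 14 were tested, 9 were higher (6.70% of all genes) and 4 lower (14.9% of all genes), with a median log2 change of 0.57. *Perp*, a p63 target of desmosomes in skin, stood at 55.7, 48.7 and 74.8 FPKM in Sox2hi libraries and averaged 9.23 ± 2.59 FPKM in Sox2midGata4mid and 11.3 ± 0.760 FPKM in Gata4hi cells (SD, n = 2 and 3). Both chains of the hemidesmosome integrin went opposite ways between Sox2hi and Gata4hi cells: *Itgb4* rose by 1.41 (limma, adjusted p = 0.0020) and *Itga6* fell by 1.73 (adjusted p = 5.6e-05) on the log2 scale. The desmosomal cadherin *Dsc2* also fell, by 1.27 (adjusted p = 0.0028). Of 19 listed suprabasal and cornified layer genes, 3 reached 1 FPKM on average and 1 was higher.

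Of the 48 other keratin genes, 8 were tested, 1 was higher and 2 lower in Sox2hi than in Gata4hi cells, counts near the 6.70% and 14.9% of all genes. *Krt18* fell by 1.23 (limma, adjusted p = 5.6e-05) and *Krt8* by 1.09 (adjusted p = 2.2e-04) on the log2 scale. *Krt19* (0.10, 95% confidence interval −0.10 to 0.31) and *Krt7* (0.16, −0.15 to 0.47) did not pass the test, and their intervals exclude changes of the size seen for *Krt5*, *Krt15* and *Krt17*.

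Sox2midGata4mid cells, the fraction between the others by reporter brightness, were closer to Gata4hi cells in each tested squamous keratin. On the log2(FPKM + 1) scale they lay 26.0% (*Krt5*), 23.7% (*Krt15*) and 13.3% (*Krt17*) of the way up from the Gata4hi to the Sox2hi mean, and *Trp63* lay at 30.2%. In mean FPKM, Sox2hi cells were above Sox2midGata4mid cells 8.84-fold for *Krt5*, 6.43-fold for *Krt15* and 20.9-fold for *Krt17*. Sox2midGata4mid cells were above Gata4hi cells 2.79-fold, 1.77-fold and 3.67-fold. For *Trp63* these folds were 16.6 and 35.4, so by fold its Sox2midGata4mid mean was nearer that of Sox2hi cells. The percentages depend on the 1 added to each FPKM value, which shrinks differences between values under 1 FPKM.

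The log2 change in Sox2hi over Sox2midGata4mid cells was 2.64 (SE 0.38, limma, adjusted p = 0.0083) for *Krt5*, 2.61 (SE 0.26, adjusted p = 0.0019) for *Krt15* and 2.69 (SE 0.58, adjusted p = 0.039) for *Krt17*. All 3 were called higher, where 3.01% of 13127 genes were. *Krt17* averaged 0.517 FPKM in Sox2midGata4mid cells and passed the filter through Sox2hi cells, so this count too is a description. The *Krt17* call was lost when any 1 library other than Sox2hi replicate 3 was left out (adjusted p = 0.065 to 0.19), and the *Krt5* call when either Sox2midGata4mid library was left out (adjusted p = 0.068 without replicate 1 and 0.057 without replicate 2). The *Krt15* call held in each of these fits.

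None of the 3 passed the test between Sox2midGata4mid and Gata4hi cells, where 13.6% of 13127 genes were called in either direction. The log2 changes were 0.93 (95% confidence interval 0.05 to 1.81, limma, adjusted p = 0.15) for *Krt5*, 0.81 (0.21 to 1.42, adjusted p = 0.081) for *Krt15* and 0.41 (−0.93 to 1.75, adjusted p = 0.68) for *Krt17*. *Krt17* averaged 0.517 FPKM in Sox2midGata4mid and 0.141 FPKM in Gata4hi cells and passed the filter through Sox2hi cells. The 1 added to each FPKM value shrinks such a difference, so this test cannot decide whether *Krt17* differs. *Krt15* was called when libraries were scaled to a common sum of FPKM (1.13, limma, adjusted p = 0.0395) and when Gata4hi replicate 1 was left out (1.03, adjusted p = 0.044). Of the 13 regulators tested, 4 were higher and 2 lower in Sox2midGata4mid than in Gata4hi cells, with a median of 0.16, where 2.59% of all genes were higher and 11% lower. *Trp63* (1.53), *Pax9* (2.0) and *Pitx1* (1.76) were among those higher (limma, adjusted p = 0.0076, 0.0018 and 0.0017), and *Grhl3* (−0.20, adjusted p = 0.61) did not pass.

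**Figure D2:**
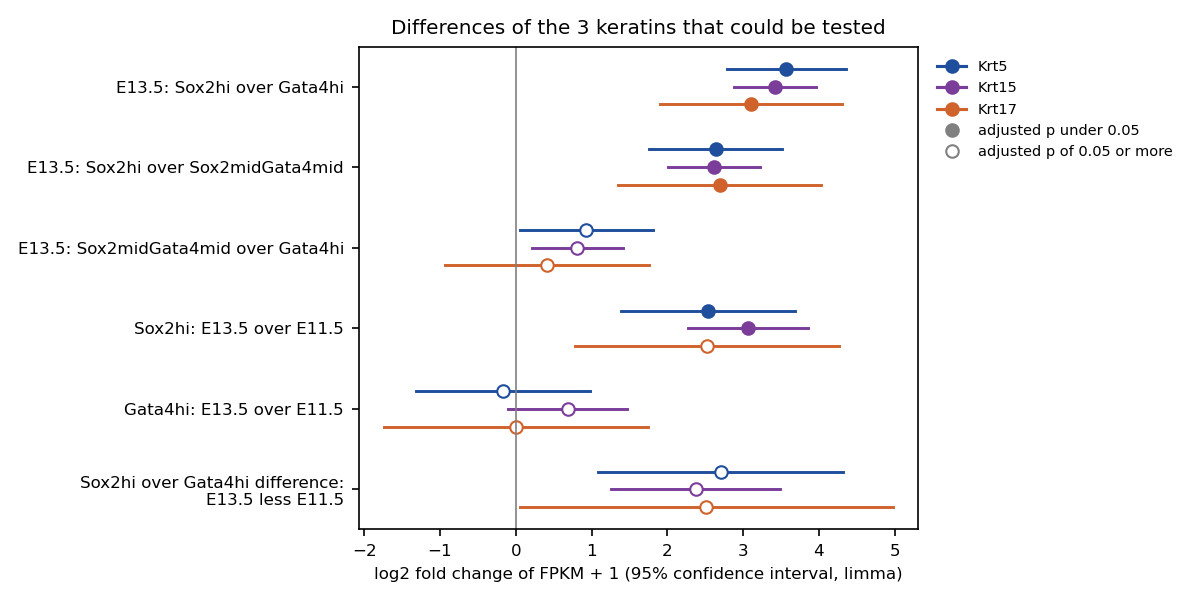
Log2 fold changes of FPKM + 1 for *Krt5*, *Krt15* and *Krt17* on the horizontal axis, with 95% confidence intervals from limma, in 6 comparisons (filled points: adjusted p under 0.05). Sox2hi over Gata4hi cells lies at 3.10 to 3.57 and Sox2hi over Sox2midGata4mid cells at 2.61 to 2.69, while Sox2midGata4mid over Gata4hi cells lies at 0.41 to 0.93.

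**Figure D3:**
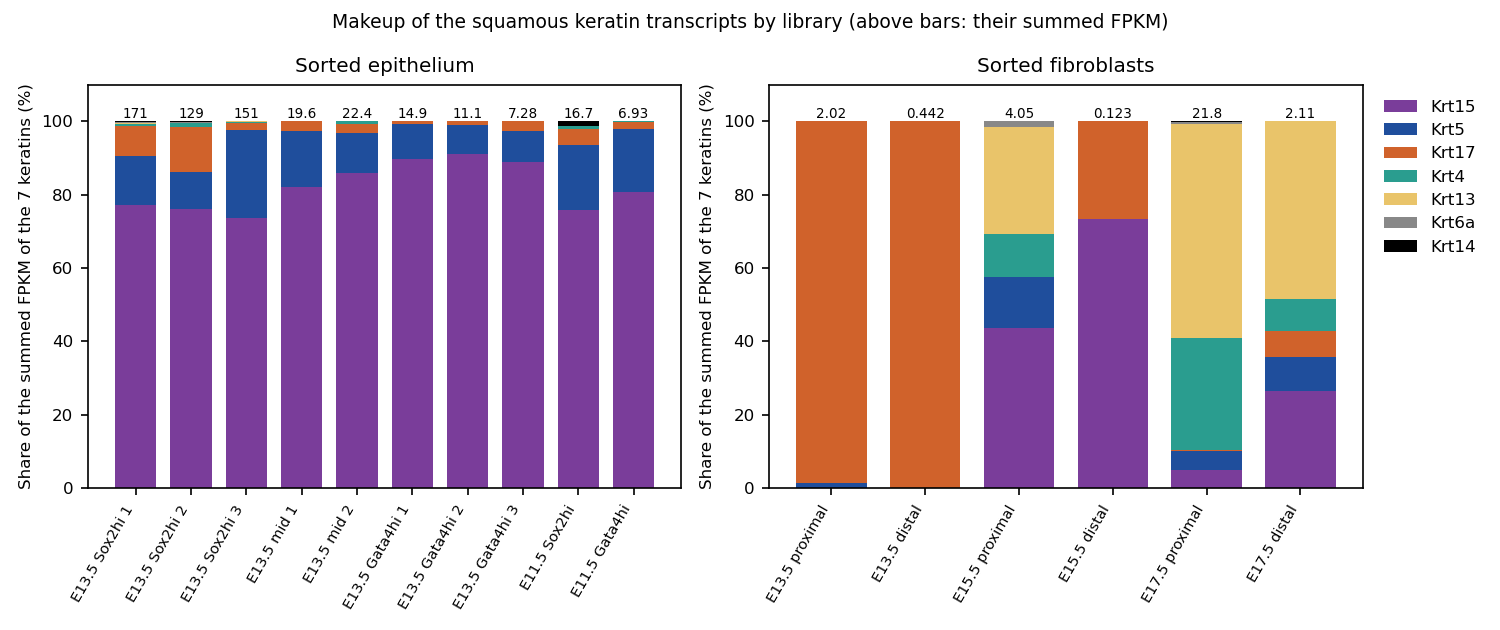
Share of each keratin in the summed FPKM of the 7 genes (vertical axis, percent) in the epithelial libraries on the left and the fibroblast libraries on the right, with the summed FPKM above each bar. *Krt15* made up 73.5% to 90.9% of the sum in E13.5 epithelium, and *Krt4* with *Krt13* made up 88.6% in E17.5 proximal fibroblasts.

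The comparison of E13.5 with E11.5 asked when the keratins came up. In Sox2hi cells *Krt15*, *Krt5* and *Krt17* were detected at both stages and stood far higher at E13.5. *Krt15* was at 132, 98.0 and 111 FPKM at E13.5 and at 12.6 FPKM at E11.5, *Krt5* at 22.5, 13 and 36.5 FPKM and at 2.98 FPKM, and *Krt17* at 14.0, 15.6 and 2.80 FPKM and at 0.710 FPKM. Every E13.5 value was above the E11.5 value of its gene.

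The log2 change in Sox2hi cells was 3.06 (SE 0.34, limma, adjusted p = 0.0039) for *Krt15* and 2.54 (SE 0.49, adjusted p = 0.025) for *Krt5*. *Krt17* had a change of 2.52 (SE 0.74, adjusted p = 0.089) and did not pass. Of the 3 tested members 2 were called higher, where 2.88% of 13139 genes were. In the same fit 5 of 13 regulators were higher and 0 lower, and 4 of 14 junction and plakin genes were higher and 1 lower, where 4.99% of all genes were lower. *Trp63* (3.17, adjusted p = 0.0025), *Pax9* (3.63, adjusted p = 6.9e-04), *Grhl3* (2.76, adjusted p = 0.0039), *Perp* (2.80, adjusted p = 0.0023) and *Itgb4* (1.58, adjusted p = 0.021) rose, and *Itga6* fell by 1.22 (limma, adjusted p = 0.0075). *Pitx1* (0.73, adjusted p = 0.076) and *Dsc2* (0.79, adjusted p = 0.13) did not pass. The single E11.5 library of each group is assumed to vary like the E13.5 libraries. The *Krt5* call was lost without Sox2hi replicate 1 (adjusted p = 0.063), and *Krt17* was called without Sox2hi replicate 3 (3.21, limma, adjusted p = 0.0036).

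At E11.5 the 4 low keratins rested on at most about 7 reads in either library, so their order is uncertain. *Krt14* was at 0.236 FPKM (about 7 reads) in E11.5 Sox2hi cells, close to the 0.229 and 0.241 FPKM of E13.5 replicates 1 and 2, while *Krt6a* and *Krt13* were at 0 there, with limits of 0.0698 and 0.104 FPKM. *Krt4* was at 0.131 FPKM (about 5 reads). No *Krt6a*, *Krt13* or *Krt14* was listed in E11.5 Gata4hi cells, and *Krt4* was at 0.0160 FPKM (1 read).

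In Gata4hi cells no tested member was called between the stages, where 1.68% of 13139 genes were called in either direction. The log2 changes were −0.17 (95% confidence interval −1.32 to 0.97) for *Krt5*, 0.69 (−0.10 to 1.47) for *Krt15* and 0.00 (−1.74 to 1.75) for *Krt17*. *Krt17* rested on about 6 to 8 reads in each Gata4hi library and passed the filter through Sox2hi cells. With 1 added to each FPKM value, this test cannot decide whether *Krt17* changed in Gata4hi cells. Whether the Sox2hi over Gata4hi difference itself grew from E11.5 to E13.5 was tested directly, and no member passed, where 1.17% of 13139 genes were called in either direction. The estimates were 2.71 (limma, adjusted p = 0.15) for *Krt5*, 2.38 (adjusted p = 0.075) for *Krt15* and 2.52 (adjusted p = 0.40) for *Krt17*, and *Krt17* passed without Sox2hi replicate 3 (3.20, adjusted p = 0.018). Of the 13 regulators tested, 2 passed in the same test, *Trp63* (3.35, adjusted p = 0.020) and *Pax9* (3.56, adjusted p = 0.0068), both higher, and 0 of 14 junction and plakin genes did.

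The fibroblast libraries were used as a check on epithelial RNA carried into another sort. At E13.5 they held almost none of the basal keratins: *Krt15* was at 0 in both, and *Krt5* was at 0.0299 FPKM (1 read) in proximal and 0 in distal fibroblasts. *Krt17* was the exception, at 1.99 FPKM (about 45 reads) in proximal and 0.442 FPKM (about 20 reads) in distal fibroblasts. That is 18.4% of the mean *Krt17* level of E13.5 Sox2hi cells in the proximal library, where *Epcam* was at 0.931% and *Cdh1* at 0.0305% of their Sox2hi means. The *Krt17* to *Krt15* ratio of these libraries was therefore unlike that of the sorted epithelium.

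At E15.5 the proximal library held 5 members above 0, all but *Krt14* and *Krt17*, and the distal library almost none. *Krt15* was at 1.77 and 0.0902 FPKM in proximal and distal fibroblasts, *Krt13* at 1.19 and 0 FPKM, *Krt5* at 0.561 and 0 FPKM, and *Krt4* at 0.472 and 0 FPKM. *Krt6a* was at 0.0599 FPKM (about 3 reads) in the proximal library. *Epcam* was at 1.15 and 0.502 FPKM and *Cdh1* at 1.97 and 0.0441 FPKM in the same libraries, so *Cdh1* was also higher in the proximal one.

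At E17.5 the suprabasal pair stood far above the basal keratins in proximal fibroblasts. *Krt13* was at 12.7 FPKM (about 450 reads) in the proximal and 1.02 FPKM in the distal library, and *Krt4* at 6.62 FPKM (about 312 reads) and 0.185 FPKM. *Krt5* was at 1.11 and 0.199 FPKM and *Krt15* at 1.09 and 0.558 FPKM. Of all 16 libraries, E17.5 proximal fibroblasts thus held the highest *Krt4* and *Krt13* values. The E13.5 Sox2hi means were 0.903 ± 0.521 FPKM for *Krt4* and 0.389 ± 0.120 FPKM for *Krt13* (SD, n = 3).

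The same library held transcripts of the outer squamous layers. Of the 19 listed suprabasal and cornified layer genes, 8 reached 1 FPKM in E17.5 proximal fibroblasts and 1 to 4 in each of the other 15 libraries. Of the 8, 4 (*Sprr3*, *Cnfn*, *Krtdap* and *Dmkn*) were below 1 FPKM in every other library, the E17.5 distal one set aside. *Krt10*, *Sprr1a*, *Sbsn* and *Tgm1* also reached 1 FPKM elsewhere. *Krt10* was at 6.87 FPKM in E17.5 and 12.7 FPKM in E13.5 proximal fibroblasts. Chosen after their values were seen, *Krtdap*, a keratinocyte differentiation gene, was at 35.8 FPKM in the proximal and 10.5 FPKM in the distal E17.5 library, *Cnfn*, a cornified envelope gene, at 6.33 and 0 FPKM, and the small proline-rich gene *Sprr3* at 4.25 and 0.273 FPKM. *Krtdap* and *Cnfn* were at 0 in all 8 E13.5 epithelial libraries. Of the general epithelial markers, *Epcam* was at 0.624 and 0.346 FPKM and *Cdh1* at 1.25 and 0.265 FPKM in proximal and distal E17.5 fibroblasts. The 8 epithelial markers of the E17.5 proximal library had a median of 0.367% of their E13.5 epithelial means. That was the highest median of the fibroblast libraries, where the others ranged from 0.0681% to 0.281%. *Trp63* was at 0.0364 and 0.0442 FPKM. No epithelium of E15.5 or E17.5 was sequenced here, so the part of epithelial carry-over of these stages was not tested.

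**Figure D4:**
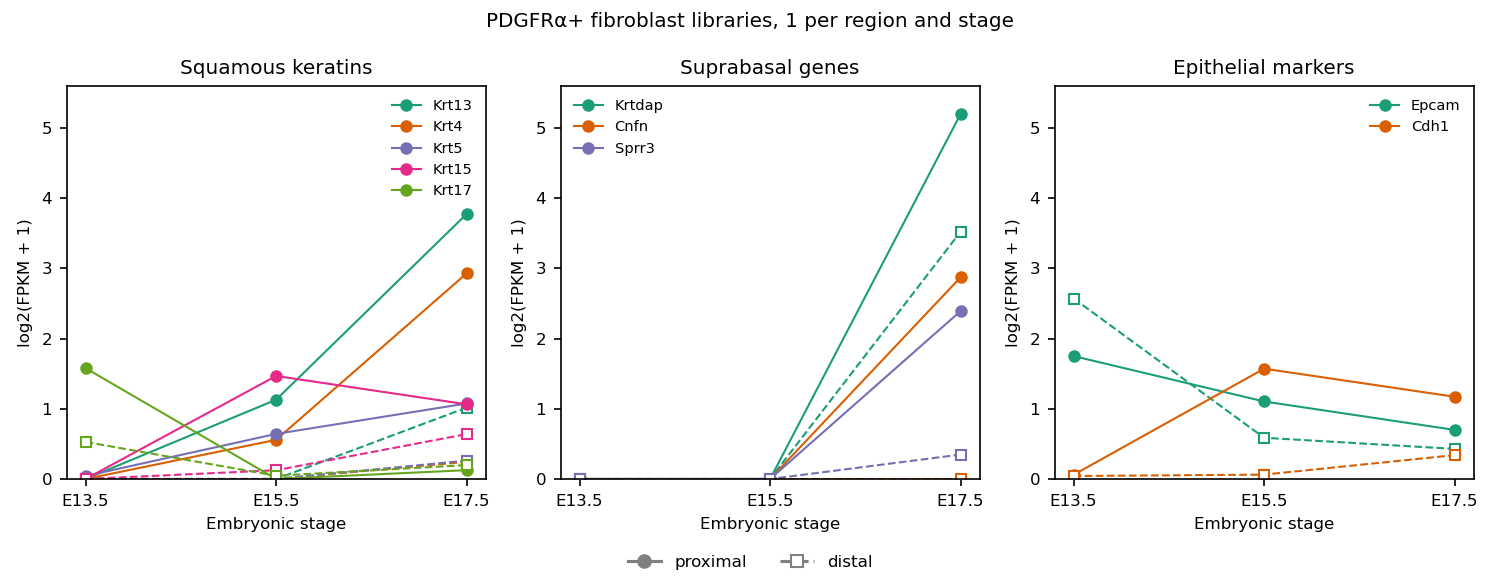
Levels in PDGFRα+ fibroblasts as log2(FPKM + 1) on the vertical axis against embryonic stage, with 1 library for each point (filled circles and solid lines: proximal; open squares and dashed lines: distal). *Krt13*, *Krt4*, *Krtdap*, *Cnfn* and *Sprr3* stand highest in the E17.5 proximal library (12.7 FPKM for *Krt13* and 35.8 FPKM for *Krtdap*). *Epcam* is highest at E13.5 (4.95 FPKM in the distal library).

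Between proximal and distal fibroblasts, with stage as a term, *Krt4* and *Krt13* were the 2 members above the filter. Both passed it through the E17.5 proximal library (6.62 FPKM for *Krt4* and 12.7 FPKM for *Krt13*), so their tests are a description. The log2 change was 1.08 (SE 0.62, limma, adjusted p = 0.63) for *Krt4* and 1.30 (SE 0.59, adjusted p = 0.55) for *Krt13*, so neither passed. Of 12900 genes 0% were called in either direction with limma, and 1287 had an unadjusted p under 0.05. *Krt4* and *Krt13* were higher in the proximal library at E15.5 and at E17.5 and at 0 in both regions at E13.5.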

How the data were processed

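The authors deposited 1 table of FPKM values for 16 polyA, stranded RNA-seq libraries, per the labels. The submitters' processing notes name mm10, Cufflinks 2.2.1, HISAT2 2.1.0 and cutadapt 1.16. Strand settings and how Cufflinks normalized are not given in the sources used here. Of 53773 lines, 1 emptied and 61 repeated entries were left out. Read numbers were recovered from genes with 1 GENCODE M21 transcript, for which FPKM times length less 199 bases fell on whole reads within 0.05 for 97.3% to 98.3% of low values, against 3.21% to 6.40% after rescaling. Limits given for a value of 0 are the level of 3 reads. They lie below the upper end of the 95% Poisson interval, for example 0.0653 against 0.0803 FPKM for *Krt14* in E13.5 Sox2hi replicate 3. Values were compared on log2(FPKM + 1) with limma 3.58.1 in R 4.3.3, for genes averaging 1 FPKM or more in the fitted libraries, with a variance trend and Benjamini-Hochberg adjustment over all genes tested (threshold 0.05). Only members, up to 4 genes per list at a mean of 5 FPKM or more, and the 3 genes most like a member were named, unless stated. The genes per list were those with the largest absolute log2 change between E13.5 Sox2hi and Gata4hi cells. Their p-values are therefore not those of genes fixed in advance. The members and gene lists were chosen with earlier results of these data known. Fits were tested on simulated data. Python 3.11.15, pandas 2.3.3, numpy 2.4.6 and scipy 1.17.1 were used. Same-numbered Sox2hi and Gata4hi libraries deviated together weakly (r = 0.113, 0.119 and 0.163, against −0.099 to −0.016 for other pairs). Deviations were taken from group means, which ties these values to each other, and replicate 3 is labelled in another style than the other E13.5 replicates. The numbers were therefore treated as a possible pairing only. This possible pairing comes from the values, as the labels state none. Alternatives were the pseudocount, filter, scaling, variance trend, replicate block, groups in the fit and leaving out each library.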

Additional observations from a re-analysis of the deposited data

How the results depend on the processing

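The *Krt5*, *Krt15* and *Krt17* calls between Sox2hi and Gata4hi cells at E13.5 held with another pseudocount, filter, scaling, variance model, set of groups or replicate block and with any 1 library left out, with log2 changes of 3.22 to 3.93, 3.17 to 3.65 and 2.72 to 3.79 when 1 library was left out. The replicate block changed no call of a member. Counts of called genes with it were 2884 (Sox2hi over Gata4hi, 2834 without), 510 (Sox2hi over Sox2midGata4mid, 728 without) and 1533 (Sox2midGata4mid over Gata4hi, 1784 without). Sox2hi and Gata4hi cells hold the same replicate numbers, so the block could not move the log2 changes between them. These were 3.57 for *Krt5*, 3.43 for *Krt15* and 3.10 for *Krt17* with and without it, which is no check of their size.

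The count of 728 genes between Sox2hi and Sox2midGata4mid cells was 374 with only these groups in the fit, 339 with replicates 1 and 2 only, and 240 to 624 with 1 library left out. The *Krt17* call there was also lost without the filter (adjusted p = 0.10) and with only these groups in the fit (adjusted p = 0.11). The count of 1784 between Sox2midGata4mid and Gata4hi cells was 1006 after quantile normalization, 1155 with only these groups, and 532 to 1804 with 1 library left out. Leaving out 1 library gave 2057 to 2760 genes between Sox2hi and Gata4hi cells.

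Between E13.5 and E11.5, the count of 1034 in Sox2hi cells was 1668 without the filter and 526 to 944 with 1 library left out. The count of 221 in Gata4hi cells was 903 without the filter and 86 to 213 with 1 library left out. For the change of the difference, 154 genes became 60 with a pseudocount of 0.1, 949 without the filter and 54 to 168 with 1 library left out. *Krt17* in Gata4hi cells had a log2 change of 0.00, and of −0.028 to 0.021 with 1 library left out, the negative value being that without Gata4hi replicate 3. Within the label style of the E11.5 libraries (E13.5 replicate 3 alone), the Sox2hi change was 3.23 for *Krt5*, 3.04 for *Krt15* and 1.15 for *Krt17*. The comparison of replicate 3 alone between Sox2hi and Gata4hi cells was added after seeing the data.

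Scaling each library to a common sum of FPKM moved the median log2 change of all genes between Sox2midGata4mid and Gata4hi cells to 0.13, against −0.13 as deposited, and between Sox2hi and Gata4hi cells to 0.05, against −0.08. The split of calls moved with it: 842 higher and 398 lower on the rescaled values, against 340 and 1444, for Sox2midGata4mid over Gata4hi cells, and 1359 and 1236, against 879 and 1955, for Sox2hi over Gata4hi cells. Rescaled, the calls were 286 higher and 588 lower (against 395 and 333) for Sox2hi over Sox2midGata4mid cells, and 496 and 318 (against 379 and 655) for E13.5 over E11.5 Sox2hi cells. The summed FPKM of the 7 keratins in Sox2midGata4mid over Gata4hi cells was 1.89-fold, and 2.33-fold on rescaled values. Causes of these shifts were not tested. *Krt14*, *Krt6a*, *Krt13* and *Krt4* rested on at most 108 reads in any epithelial library, so their differences between replicates are the least certain, and each E11.5 and fibroblast group has 1 library.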
